A study of Mus musculus with 8 samples.

Results

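The BCL2 family genes *Bax*, *Bbc3*, *Pmaip1* and *Bcl2* were followed through p53 chromatin immunoprecipitation sequencing (ChIP-seq) of mouse alveolar organoids. These 4 genes were chosen by name from the 1425 genes to which the authors assigned a region of higher p53 binding after bleomycin (BLM). The table gave them 5 regions, 1 to *Bax*, 2 to *Bbc3*, 1 to *Pmaip1* and 1 to *Bcl2*. The organoids were grown without feeder cells from alveolar type II (AT2) cells, the surfactant-producing stem cells of the alveolus, which had been sorted from the lungs of adult male wild-type mice. They received either DMSO (CTRL, 2 libraries) or 100 μM BLM, a drug that breaks DNA (BLM, 2 libraries), for 24 h. An anti-p53 antibody (D2H9O) was used after fixation with formaldehyde and DSG. All 4 libraries came from wild-type cells, so no library without p53 serves as a control for the antibody, and input DNA of the same 4 samples was not analysed here. The data came from 2 mice, and which libraries share a mouse is not given in the sources used here. Peak lists carry no expression values, so the identity of the cells could not be checked against AT2 markers.

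The BCL2 family sets the threshold of the mitochondrial pathway of apoptosis. Bax is an effector, which permeabilises the outer mitochondrial membrane once activated. Bbc3 (PUMA) and Pmaip1 (Noxa) are BH3-only proteins, which bind and neutralise the anti-apoptotic members, and Bcl2 is the founding anti-apoptotic member. *Bax*, *Bbc3* and *Pmaip1* are long-known transcriptional targets of p53, the transcription factor that is stabilised when DNA is damaged.

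The deposited distances placed the transcription start site (TSS) of *Bax* (gene ID 12028) at 45116323 on chromosome 7 of GRCm39 (minus strand) and that of *Bbc3* (170770) at 16043542 on chromosome 7 (plus strand). That of *Bcl2* (12043) was placed at 106642005 on chromosome 1 (minus strand), and that of *Pmaip1* is given with its peak. Positions relative to a TSS are negative upstream of it and positive downstream of it, in the direction of transcription.

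The promoter sequences show which p53 motif the genes carry next to their start, and are given for the 3 genes with an entry in the RefSeq table of GRCm38.p6. Each runs from 250 bases before a RefSeq start to 50 after it. The p53 response element is a pair of decamers, each made of purines, a C, a pair of bases that are A or T, a G and pyrimidines, and capitals mark the pair that fits best. The *Bax* window is chr7:45466849-45467148 (minus strand), the *Bbc3* window, the one of its 3 that holds an unspaced match, chr7:16309333-16309632 (plus strand), and the *Bcl2* window chr1:106714241-106714540 (minus strand).
Bax: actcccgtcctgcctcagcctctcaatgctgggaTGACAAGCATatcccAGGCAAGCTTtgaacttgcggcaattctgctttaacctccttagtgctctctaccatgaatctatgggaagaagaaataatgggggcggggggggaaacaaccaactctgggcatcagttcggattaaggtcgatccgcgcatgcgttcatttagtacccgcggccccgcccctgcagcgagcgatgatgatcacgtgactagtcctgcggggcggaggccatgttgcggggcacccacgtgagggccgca
Bbc3: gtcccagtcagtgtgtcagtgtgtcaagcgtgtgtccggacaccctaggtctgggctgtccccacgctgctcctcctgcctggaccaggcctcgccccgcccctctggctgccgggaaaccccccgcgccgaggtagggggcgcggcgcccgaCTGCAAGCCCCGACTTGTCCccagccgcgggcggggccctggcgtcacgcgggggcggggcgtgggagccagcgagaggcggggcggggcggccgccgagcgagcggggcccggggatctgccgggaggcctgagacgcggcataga
Bcl2: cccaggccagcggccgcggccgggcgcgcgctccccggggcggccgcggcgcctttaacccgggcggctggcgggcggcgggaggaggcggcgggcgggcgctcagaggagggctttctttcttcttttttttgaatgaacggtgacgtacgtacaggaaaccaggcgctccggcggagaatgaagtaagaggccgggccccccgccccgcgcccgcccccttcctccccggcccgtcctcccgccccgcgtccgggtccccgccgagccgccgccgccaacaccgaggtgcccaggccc

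With the decamers adjacent, at most 3 mismatches in 20 bases and none at the C and G of each core, searched on both strands, the *Bbc3* window held 1 match. It had 3 mismatches and lay at −97 to −78 from that RefSeq start. This search found a match in 1.38% of all 32851 promoter windows of the same length. *Bax* and *Bcl2* held none under this setting. With up to 13 bases allowed between the decamers, *Bax* held 3 matches, which may overlap each other. The best had 2 mismatches and a spacer of 5 bases, at −216 to −192, and 15.6% of all windows held a match under this looser rule. *Bcl2* held none under any setting tried. The windows of *Bbc3* and *Bcl2* shared a high GC content: 76.0% in the printed windows of both genes, against 57.3% in *Bax* and a median of 52.7% over all windows. They held 34 and 44 CpG dinucleotides, *Bax* held 19, and the median window held 7.

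The p53 peak lists were 50430 and 48743 peaks long in CTRL and 39577 and 41451 in BLM. A fold enrichment is the height of a peak over its local background as the authors' peak caller wrote it, and a percentile is the share of peaks of the same list whose fold enrichment is no higher. Read counts were not among the values used, and the depth of each library is unknown. Peaks of the 4 libraries that overlapped by at least 1 bp were joined into 63268 regions, 26316 of them called in every library. Over these, fold enrichment was lower in BLM by a median of −0.37 on the log2 scale, a ratio of 0.773, so a difference at a gene is read against that shift.

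*Bax* had its BLM-enriched region just inside the gene. The region spans 400 bp, chr7:45115808-45116207, with its middle at +315 bp, and was shared with no other gene. The peak over it had a fold enrichment of 10.6 and 14.3 in CTRL and of 65.3 and 60.8 in BLM. The BLM values lay far apart from the CTRL values, and the replicates of each condition were close to each other. CTRL averaged 12.4 ± 2.62 (SD, n = 2) and BLM 63.0 ± 3.18 (SD, n = 2), a difference of 2.36 on the log2 scale (SE 0.22), or a ratio of 5.13. By fold enrichment it ranked 13283 and 5982 in the CTRL lists and 36 and 35 in the BLM lists. The authors chose the enriched regions on this same contrast, so the differences at the enriched regions are given as a description. The fit across all regions used further on includes them, and its p-values for them are not used.

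The *Bax* peak stayed in place. Its summit lay at +330 and +293 in CTRL and at +316 in both BLM libraries, a range of 37 bp. The peak was 693 and 605 bp wide in CTRL and 821 and 662 bp wide in BLM, and in all 4 libraries it reached across the TSS. CTRL 1 had a further small peak with its summit at −573 and a fold enrichment of 5.08, which no other library shared.

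*Bbc3* had the highest single p53 peak of the 4 genes, in BLM 1. Its upstream region, chr7:16042429-16042828, has its middle at −913 bp. The peak over it had a fold enrichment of 16.9 and 22.4 in CTRL and of 84.8 and 54.2 in BLM. Both BLM values lay above both CTRL values, and the BLM replicates differed from each other more than those of *Bax* did. CTRL averaged 19.7 ± 3.84 (SD, n = 2) and BLM 69.5 ± 21.6 (SD, n = 2), a difference of 1.80 on the log2 scale (SE 0.38) and a ratio of 3.48. In CTRL this site was already among the higher peaks, at percentiles 92.8 and 98.0, and in BLM it ranked 14 and 57.

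The second *Bbc3* region, chr7:16043950-16044349, has its middle at +608 bp and was much lower. Fold enrichment there was 4.38 and 8.15 in CTRL and 15.3 and 11.03 in BLM. The groups did not overlap, yet the CTRL replicates lay farther from each other than the higher CTRL value did from the lower BLM value. The difference was 1.12 on the log2 scale (SE 0.51), a ratio of 2.17, and 0.67 without CTRL 1. Its percentiles were 7.55 and 57.4 in CTRL and 95.6 and 85.2 in BLM. In BLM the summits of the 2 *Bbc3* peaks thus lay on either side of the TSS at unequal heights.

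The extent of the called p53 peaks at *Bbc3* also differed between the conditions. A width is where the peak caller set the edges, and whether occupancy itself spread was not tested. In CTRL the upstream peak was 529 and 418 bp wide, and a separate peak sat at the TSS, with its summit at −103 and −136 and a fold enrichment of 11.4 and 12.5. In BLM there was 1 peak of 1456 and 1454 bp, from −1314 to +141 and from −1316 to +137, which covered the places of both. A peak carries 1 summit, so the lists do not record whether the TSS site kept a maximum of its own in BLM. The upstream summit itself lay at −908, −898, −914 and −906 in CTRL 1, CTRL 2, BLM 1 and BLM 2, a range of 16 bp. Among the 280 enriched regions called in all 4 libraries the median summit range was 51.5 bp, and 10.4% had a smaller one. The matched motif printed above lies at −97 to −78 from a RefSeq start of *Bbc3*. Which of the 3 RefSeq starts the deposited distances refer to was not settled, so that position cannot be set against the summits. No GRCm39 sequence was given, so the sites at +316 in *Bax* and −908 in *Bbc3* were not searched.

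*Pmaip1* (58801) had its region over the TSS, chr18:66591332-66591731, with its middle at −144 bp. Its TSS was placed at 66591676, with the strand, which the tables used here did not give, taken as plus. On the other strand it would lie 288 bp away. Fold enrichment was 6.39 and 7.67 in CTRL and 19.5 and 13.6 in BLM, so the groups did not overlap. The means were 7.03 ± 0.90 (SD, n = 2) and 16.5 ± 4.19 (SD, n = 2), a difference of 1.22 on the log2 scale (SE 0.29) and a ratio of 2.32. In CTRL the peak was an average one, at percentiles 38.6 and 53.3, and in BLM it stood at 98.3 and 92.4. The summits lay at −120 and −86 in CTRL and at −167 and −156 in BLM, both BLM summits upstream of both CTRL summits within a range of 81 bp. The peak was 467 and 349 bp wide in CTRL and 635 and 644 bp wide in BLM.

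*Bcl2* stood apart from the other 3. Its assigned region, chr1:106170551-106170950, lies +471254 bp from its TSS, while the gene itself is 176115 bp long (RefSeq, GRCm38.p6). The same region was assigned to *Phlpp1*, a phosphatase gene, at +71268 bp, and the other 4 regions were assigned to 1 gene each. No peak was called there in either CTRL library, and the BLM peaks had a fold enrichment of 6.77 and 4.93, at percentiles 52.2 and 18.6. Of all enriched regions, 152 in BLM 1 and 36 in BLM 2 had a lower fold enrichment than this one. The 520 enriched regions with a peak in both BLM lists but none in CTRL had a median of 9.10 and 8.91.

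At the *Bcl2* promoter itself the pattern did not run towards BLM. A peak over the TSS had a fold enrichment of 5.32 and 6.65 in CTRL and of 4.64 in BLM 2, and none was called in BLM 1. These were low peaks, at percentiles 21.6, 41.9 and 14.4 of their lists. Both CTRL values lay above the BLM 2 value, but no longer did once each library was centred on its median. Before centring, 34.2% of all joined regions outside the enriched list had both CTRL values above both BLM values, a missing peak counted as lowest.

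**Figure D1:**
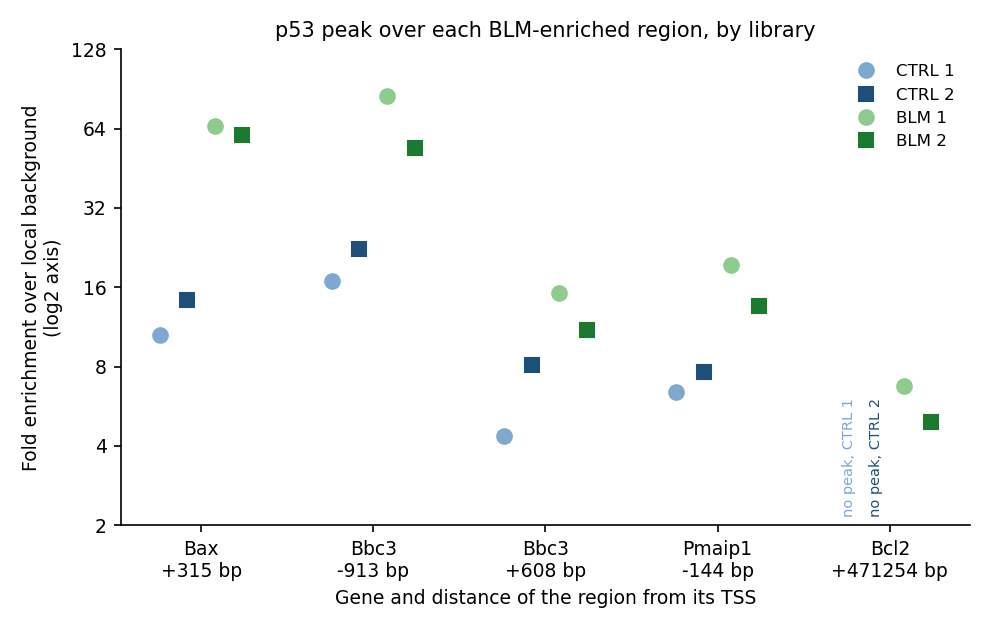
Fold enrichment of the p53 peak over each of the 5 BLM-enriched regions (log2 axis), 1 point per library, with the gene and the distance of the region from its TSS in bp below. The 4 regions near *Bax*, *Bbc3* and *Pmaip1* had both BLM points above both CTRL points, from 84.8 and 54.2 at *Bbc3* −913 down to 15.3 and 11.03 at *Bbc3* +608, and the distant *Bcl2* region had BLM points only.

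**Figure D2:**
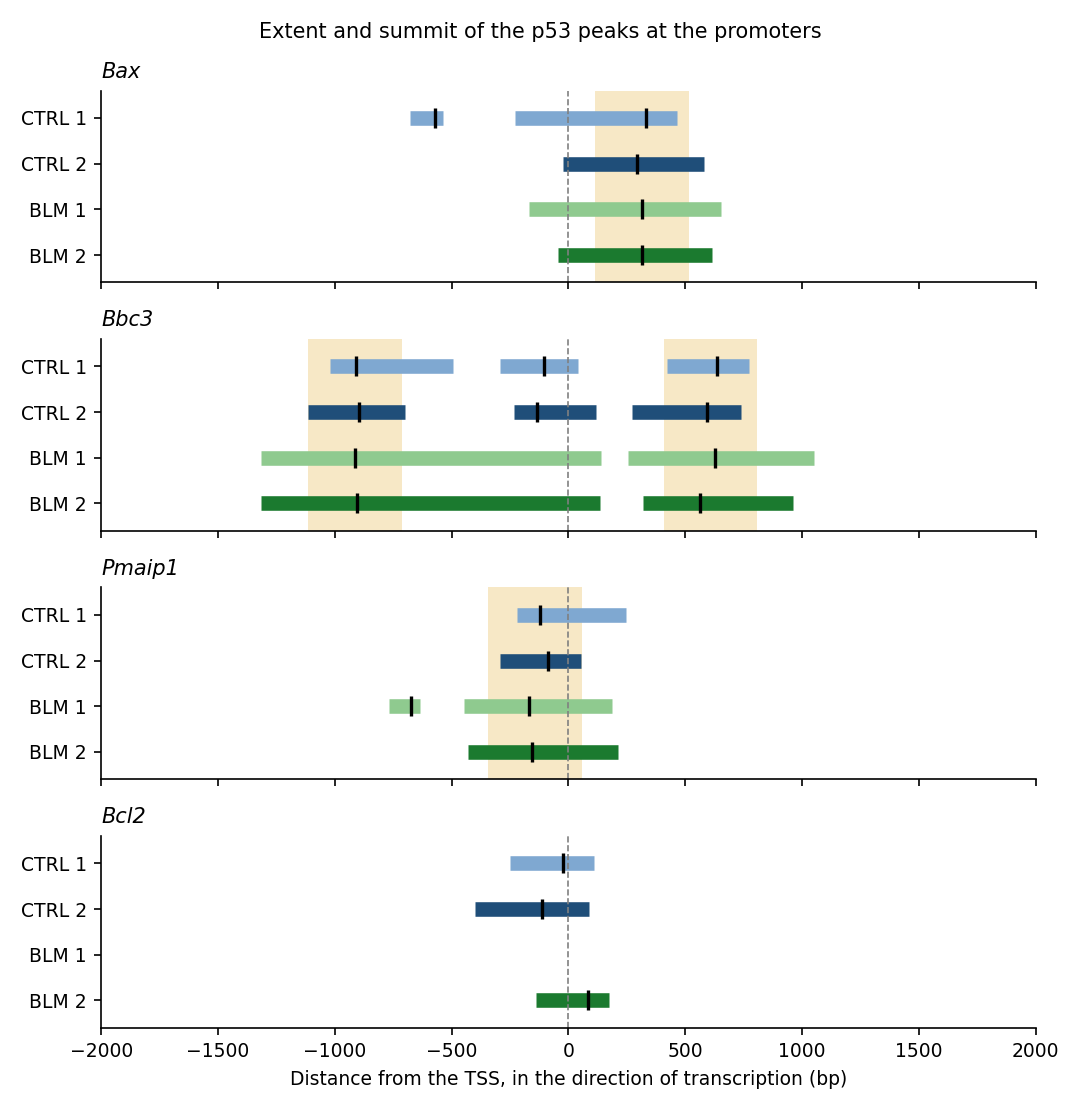
Extent (bars) and summit (black ticks) of every p53 peak near the TSS (dashed line) in the 4 libraries, by distance from the TSS in bp. Shaded bands are the 400 bp BLM-enriched regions. The *Bax* summits fall within 37 bp of each other, the BLM peak of *Bbc3* spans 1456 and 1454 bp where CTRL had separate peaks, and *Bcl2* has no band and no BLM 1 peak.

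Among the enriched regions called in all 4 libraries, the median ratio of BLM over CTRL was 2.40. By that ratio the *Bax* region ranked 30 of 280 and the upstream *Bbc3* region 79, while *Pmaip1* ranked 149 and the downstream *Bbc3* region 157. By height in BLM the order was different. The upstream *Bbc3* region ranked 14 and 54 among all enriched regions, *Bax* 36 and 34, *Pmaip1* 260 and 374, the downstream *Bbc3* region 349 and 472, and *Bcl2* 758 and 879. The heights of upstream *Bbc3* and *Bax* in BLM overlapped, as did those of *Pmaip1* and downstream *Bbc3*, so neither pair can be put in order. In distance from the TSS, *Pmaip1* (144 bp), *Bax* (315 bp) and *Bbc3* (608 bp) were among the nearest of the 1425 genes, with 26, 48 and 66 genes nearer. The median of the nearest distances was 53801 bp, and for *Bcl2* 1348 genes were nearer.

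Within 50 kb of the TSS, p53 peaks were more numerous around *Bax* and *Bbc3* than around *Pmaip1* and *Bcl2*, which were near the median gene. *Bax* had 10 and 7 peaks in CTRL and 9 and 9 in BLM, and *Bbc3* had 14 and 17 in CTRL and 16 and 12 in BLM. *Pmaip1* had 3 and 4 in CTRL and 3 and 3 in BLM, and *Bcl2* had 4 and 5 in CTRL and 2 and 3 in BLM. CTRL and BLM counts overlapped for each gene but *Bcl2*. The share of genes whose counts do not overlap was not taken, and the CTRL lists were the longer ones, so this is not read as a trait of *Bcl2*. The median was 4 in every library over the 1076 genes of the authors' table with a strand. Depending on the library, 92.0 to 96.7% of these genes had fewer peaks than *Bbc3*. The window of *Bax* holds 8 other protein-coding genes of RefSeq, among them *Ftl1* and *Gys1*, that of *Bbc3* holds 4, that of *Bcl2* holds 1 (*Kdsr*) and that of *Pmaip1* holds none, so a peak in a window need not belong to the gene named.

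**Figure D3:**
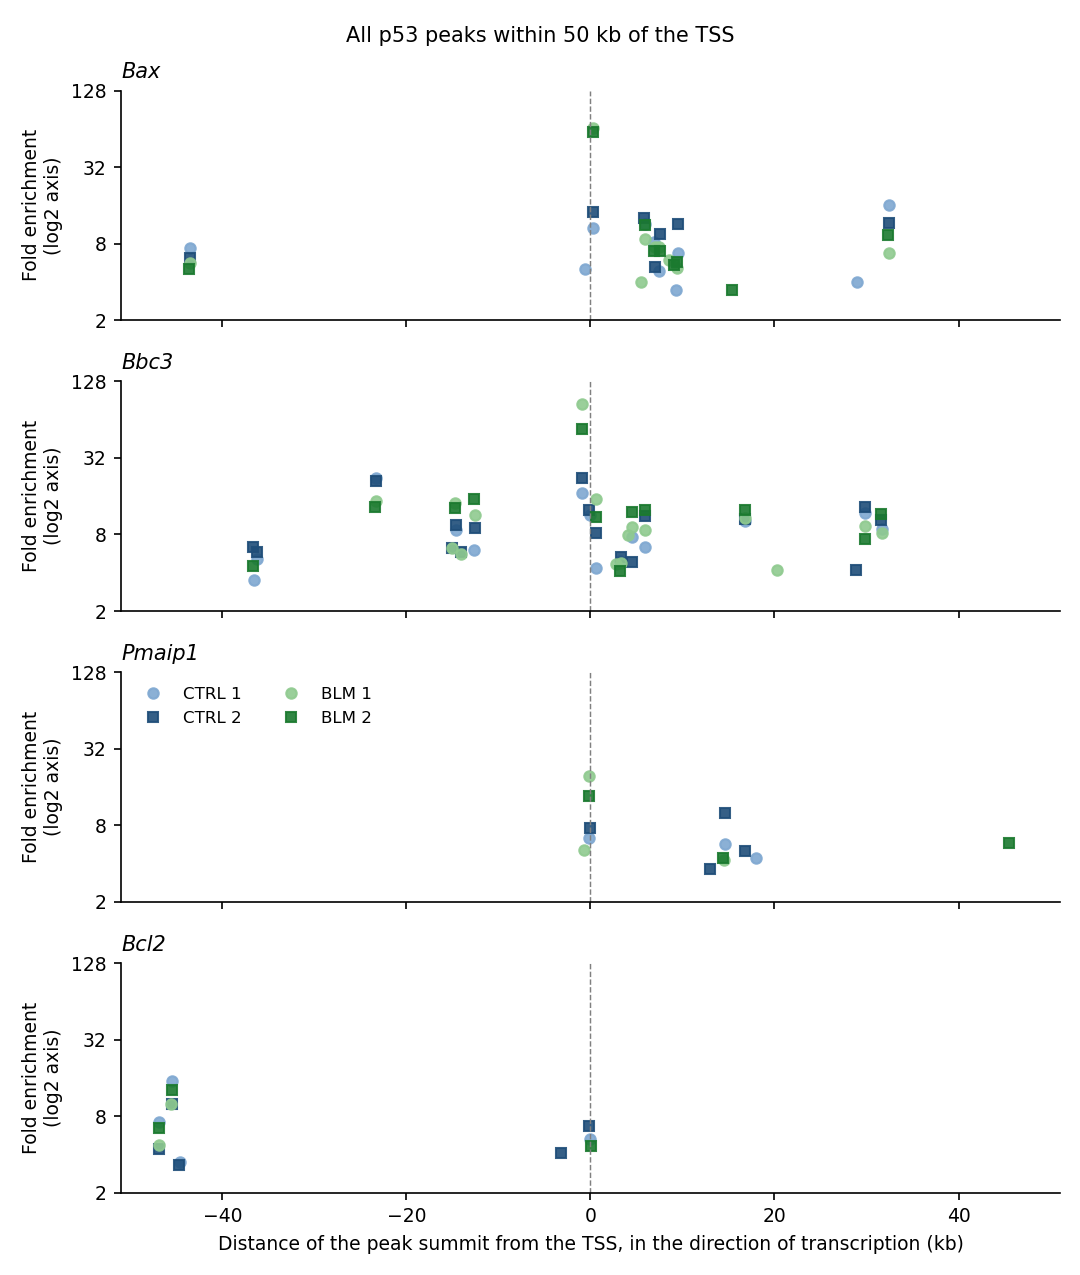
All p53 peaks within 50 kb of the TSS of each gene, by summit position (kb) and fold enrichment (log2 axis), 1 symbol per library. The BLM peaks at the TSS of *Bax* and upstream of *Bbc3*, between 54.2 and 84.8, stand above all others in the windows, and *Pmaip1* and *Bcl2* have between 2 and 5 peaks in each library.

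Joining the peaks of the 4 libraries gave 41 regions in these windows, 4 of them in the enriched list (the distant *Bcl2* region lies outside its window). Of the other 37, 18 were called in all 4 libraries: 6 near *Bax*, 9 near *Bbc3*, 1 near *Pmaip1* and 2 near *Bcl2*. A further 13 were called in 1 library only, none in both BLM libraries alone, and 2 in both CTRL libraries alone. The shares of all joined regions called in these ways were not taken, and the CTRL lists were the longer ones. These counts thus stand without a comparison. The regions outside the enriched list were compared between the conditions. In limma on log2 fold enrichment, fitted over all 26316 regions called in every library, 0 of the 18 passed an adjusted p of 0.05, and the lowest adjusted p was 0.185. On simulated data this fit recovered 11% of regions changed by 1 on the log2 scale, and the 18 differences lay between −0.80 and 0.82. With 2 libraries per condition, the lack of calls does not show that binding was unchanged there. Over all 26030 such regions outside the enriched list 2.43% passed. At an unadjusted p under 0.05 there were 5 of the 18, 2 higher and 3 lower in BLM, and 3 of the 18 after each library was centred on its median. Over all 26316 regions, the enriched ones included, limma gave 5674 with an unadjusted p under 0.05, and 2606 after centring. The smallest two-sided p of an exact permutation test of 2 libraries against 2 is 0.3333, and none was run for single regions.

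For counts of regions whose groups did not overlap, a library without a peak was counted as below the others. Outside the enriched list, the regions with both BLM values above both CTRL values were all near *Bbc3*, and each had a peak in all 4 libraries. There were 4 of 37 such regions (10.8%), against 4.15% of all joined regions outside the list. Among regions called in all 4 libraries they were 4 of 18 (22.2%), against 4.98%. At −12.6 kb from the *Bbc3* TSS fold enrichment was 6.01 and 9.08 in CTRL and 11.3 and 15.1 in BLM (log2 difference 0.82, SE 0.37, limma adjusted p = 0.185). At −14.7 kb it was 8.60 and 9.48 in CTRL and 14.2 and 13.03 in BLM (log2 difference 0.59, SE 0.35, limma adjusted p = 0.320). At +4.3 kb it was 7.66 and 4.91 in CTRL and 9.24 and 12.1 in BLM (log2 difference 0.79, SE 0.38, limma adjusted p = 0.224). None of these passed, and the region at +16.7 kb differed least, with 10.2 and 10.6 in CTRL and 10.9 and 12.5 in BLM. Whether the number near *Bbc3* differs from that at other loci was not tested.

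The reverse pattern, both CTRL values above both BLM values, was seen in 11 of the 37 regions (29.7%), against 34.2% of all joined regions outside the list, 3 of them lacking a peak in 1 or both BLM libraries. It was seen in 8 of the 18 called in every library, against 47.8%. Both shares were close to those over all regions. At −23.2 kb from *Bbc3* fold enrichment was 22.4 and 21.1 in CTRL and 14.6 and 13.2 in BLM (log2 difference −0.65, limma adjusted p = 0.221). At +32.3 kb from *Bax* it was 16.2 and 11.7 in CTRL and 6.78 and 9.42 in BLM (log2 difference −0.78, limma adjusted p = 0.200). The single such region near *Pmaip1*, at +14.6 kb, had 5.73 and 10.0 in CTRL and 4.28 and 4.41 in BLM (log2 difference −0.80, limma adjusted p = 0.211). Near *Bcl2* the highest region, at −45.4 kb, had 15.2 and 9.96 in CTRL and 9.95 and 12.9 in BLM, so its groups overlapped. Once each library was centred on its median, 8 regions had both BLM values higher, 7 of them near *Bbc3* and 1 near *Bax*, and 3 had both lower, of which 2 had no BLM peak and the region at −23.2 kb from *Bbc3* had measured BLM values. The shares over all joined regions outside the list then were 11.7% and 18.8%. Among the 18 regions, centring turned the negative log2 differences at −43.5 and +5.8 kb from *Bax* and +3.3 kb from *Bbc3* positive. It did the same at −46.9 and −45.4 kb from *Bcl2*, and the other negative ones stayed negative.

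**Figure D4:**
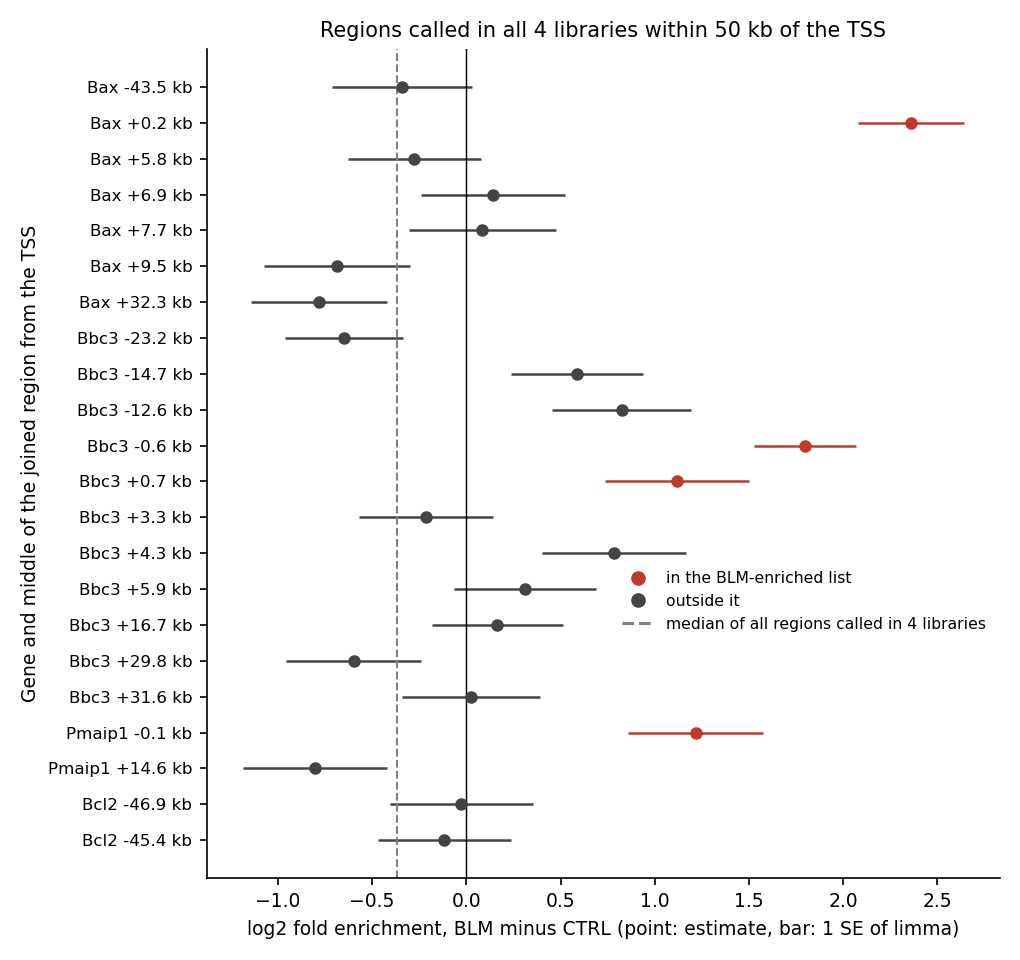
Difference in log2 fold enrichment, BLM minus CTRL, for each region called in all 4 libraries within 50 kb of a TSS (point, with a bar of 1 SE from limma). The enriched regions (red) lie between 1.12 and 2.36, the 18 others (grey) between −0.80 and 0.82, and the dashed line is the median of all regions, −0.37.

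Like protein-coding genes at large, the other genes of the family were mostly without an assigned region. Of 19 further BCL2 family genes 2 had one, and of 8 genes of the mitochondrial pathway downstream of them 1 had one, against 6.28% of 21900 RefSeq protein-coding genes. None of the other effectors (*Bak1*, *Bok*) had a region. Of 6 further BH3-only genes 1 did, and of 7 further anti-apoptotic genes 1 did. Near *Bcl2l1*, which encodes the anti-apoptotic BCL-XL, a region at +38026 bp had a fold enrichment of 43.3 and 36.8 in CTRL and 62.1 and 82.0 in BLM. This is as high as the *Bax* and *Bbc3* sites in BLM and well above them in CTRL, and the region was also assigned to *Cox4i2* at +37546 bp. Near *Bcl2l11* (BIM, a BH3-only protein) a region at +8055 bp had no peak in CTRL 1, 8.91 in CTRL 2, and 42.6 and 38.7 in BLM. That region was also assigned to *Spdye4c* at −458247 bp. *Xiap*, an inhibitor of caspases, had a region at −75558 bp with BLM peaks only, 19.1 and 14.7, also assigned to *Thoc2*. All 3 regions lay farther from the TSS than the nearest ones of *Bax*, *Bbc3* and *Pmaip1*.

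The genes whose nearest enriched region had fold enrichments most like those of each member were found by Euclidean distance of log2 fold enrichment over the libraries with a peak. This was a description over 4 points for 3 of the genes, and over 2 for *Bcl2*. For *Bax* they were *Gtf2h5* and *Tulp4*, which share 1 region (distance 0.231, with 9.53 and 14.8 in CTRL and 68.3 and 54.5 in BLM), and *Csrp1* (0.293), among 401 genes. For the downstream *Bbc3* region, the nearer one, they were *Pla2g10* (0.225) and *Cdyl* and *Eci2* (0.457, 1 region). For *Pmaip1* they were *Amotl2* and *Ryk* (0.358, 1 region) and *Arhgef10l* (0.382). For *Bcl2* they were *Alk* and *Clip4* (0.0806, 1 region) and *Depdc1b* (0.0864) among 841 genes. Of these 12 genes only *Tulp4* had its region within 10 kb of its TSS (−9872 bp).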

How the data were processed

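p53 ChIP-seq was analysed in 4 libraries, CTRL 1 and 2 and BLM 1 and 2, grouped by the labels. Each library had its own peak calling by the authors. The submitters' processing notes name Trim Galore 0.6.7, Bowtie2 2.5.1, MACS3 3.0.0b1, DiffBind 3.8.4 and edgeR 3.40.2, with no role or order, and the builds mm39 and mm10. How duplicate reads were handled and which control the caller used are not given in the sources used here. The authors deposited per peak a fold enrichment (a ratio over local background), −log10 p-values and −log10 q-values (lowest just above 2), a summit and a score, which is the −log10 q times 10 without decimals. The score was not used. A deposited list holds 915 BLM-enriched regions, whose thresholds are not given here. A deposited gene table was made with GREAT 4.0.4 (basal domain from 5000 bp before to 1000 bp after a TSS, extended by up to 1000000 bp), with distances from mm10. No position was converted from 1 build to another. The TSS positions on GRCm39 do combine region middles on GRCm39 with these distances from mm10. Whether the distances hold on GRCm39 was not checked.

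The TSS was taken as the region's middle minus the distance on the plus strand and plus the distance on the minus strand. Among genes with at least 2 regions, the TSS implied by each region agreed within 10 bp for 73 of 75 plus-strand and 67 of 73 minus-strand genes. This compares the regions of a gene with each other, not with an annotated TSS. It could not be done for *Bax*, *Pmaip1* and *Bcl2*, which had 1 region each. Strand, gene names and promoters came from RefSeq tables of GRCm38.p6. Peaks with an edge within 50 kb were listed. Joined regions called in every library were tested with limma 3.58.1 (R 4.3.3) on log2 fold enrichment, with an intensity trend, without a pseudocount, since no value was 0, and with Benjamini-Hochberg adjustment over all 26316. On simulated data, the test recovered 11% of regions changed by 1 on the log2 scale and 92% of those changed by 2. The simulation took the means and spread of these regions and held no shift between the conditions over all regions. Regions lacking a peak in some library stayed out of limma, and in counts of non-overlapping groups a missing peak counted as lowest. Tables were handled in Python 3.11.15 with pandas 2.3.3 and numpy 2.4.6, and figures drawn with matplotlib 3.10.9. The genes named are the 4 members, those sharing a region with them, the BCL2 family and mitochondrial pathway lists where a region was assigned, and for likeness the 3 nearest genes. Members and lists were chosen with earlier results of these data known. Where libraries of a condition do not come from separate cultures, the p-values measure a spread that may be technical.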

Additional observations from a re-analysis of the deposited data

How the results depend on the processing

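Of 99 alternative values, 74 stayed within the spread or within 1.5 times of the value given and 25 moved. By construction, leaving out 1 library or blocking by replicate could not move the enriched regions' differences beyond the spread, so the 74 overstate stability. The mean number of peaks in the 4 windows, 32 in CTRL and 28.5 in BLM, was 14.5 and 14.5 within 10 kb and 58.5 and 50 within 100 kb, and 31 to 33 and 27 to 30 with 1 library left out. With the same number of peaks per list it was 23 in CTRL and 28 in BLM, so the order turned. At the genes' enriched regions the log2 differences kept their sign. Centring on the median raised them to 2.76 at *Bax*, 2.20 at *Bbc3* −913 and 1.62 at *Pmaip1*. With 1 library left out they ranged from 2.14 to 2.58 at *Bax*, 1.48 to 2.12 at *Bbc3* −913, 0.67 to 1.57 at *Bbc3* +608 (0.67 without CTRL 1) and 0.956 to 1.48 at *Pmaip1*. Ranked by width, the mean percentile in BLM was 93 at *Bax*, 99.5 at *Bbc3* −913 and 89.9 at *Pmaip1*, and in CTRL 70.8 at *Bbc3* −913 and 62.3 at *Pmaip1*. Ranked by −log10 q it was 99.9 at *Bax* in BLM. With 2 mismatches 0 promoter windows held the motif, and with a spacer 3 did.

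The 4 regions with both BLM values higher became 1 within 10 kb, 8 after centring (added after the data were seen) and 6 to 9 with 1 library left out (8 without BLM 1, 9 without BLM 2). The 11 with both lower became 4 within 10 kb, 6 within 25 kb, 21 within 100 kb, 3 after centring and 11 to 18 with 1 library left out (18 without CTRL 1, 17 without CTRL 2). With fewer libraries this pattern is met more easily by construction. Of the regions near the genes outside the enriched list, 0 passed limma under every alternative run, including each library left out (0 to 0), with the lowest adjusted p between 0.142 and 0.573 and 1 to 5 regions at an unadjusted p under 0.05. Over all regions limma made 790 calls (159 higher, 631 lower in BLM). Outside the enriched list there were 2 higher and 631 lower, and after centring 17 and 14. All calls together were 213 after centring, 175 after quantile normalisation, 0 on percentiles, where 2263 had an unadjusted p under 0.05, and 275 to 1366 with 1 library left out (275 without CTRL 2, 278 without CTRL 1, 1366 without BLM 2). The cause was not tested.

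The correlation of the CTRL and BLM replicate differences was 0.00725 over 26316 regions, no sign of pairing by replicate number. This cannot show whether libraries of the same number share a mouse. With the replicate number as a block limma made 1245 calls over all regions, 1077 outside the enriched list. Of the 18 regions near the genes outside that list 0 passed. The block cannot change the differences, since each condition holds both numbers. With libraries matched by number, 5 regions had each BLM value above the same-numbered CTRL value and 12 the reverse. These counts of a looser rule stand without a comparison. No read counts were used, so depth sets an unknown limit.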
